A study of Homo sapiens with 4 samples.

Results

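The 10 classic human mirtrons, MIR877, MIR1224, MIR1225, MIR1226, MIR1227, MIR1228, MIR1229, MIR1236, MIR1237 and MIR1238, were followed in small RNA libraries of HEK293T cells. The genes were chosen by name as mirtrons and not by their counts, though with earlier results of these data known. All 10 were found among the 7062 small RNA features counted in each library, of which 1870 were microRNAs (miRNAs). In these cells 2 of the 10, MIR877 and MIR1226, supplied nearly all mirtron reads. The mean level of MIR877 was 83.9 ± 20.7 in the 52X T4A libraries against 49.6 ± 3.77 in 52X WT (CPM, counts scaled to a common library size; SD, n = 2), and that of MIR1226 was 20.4 ± 0.91 against 18.4 ± 3.09. None of the 5 mirtrons with enough reads to be tested passed the test.

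HEK293T is a human embryonic kidney cell line, although the cell line field of the labels says HEK293. Cells of both groups were transiently transfected with 1.5 µg of plasmid per well and then selected in 2.5 µg/ml α-amanitin, a toxin that inhibits the endogenous RNA polymerase II (Pol II), for 72 h with daily renewal of the drug. The 52X T4A cells expressed Pol II whose C-terminal domain (CTD) carries alanine in place of threonine at the fourth position of its repeats, and the 52X WT cells expressed the wild-type CTD. The design asks how small RNA levels differ between the mutant and the wild-type CTD. Each group had 2 libraries of 50 bp single-end reads, presented as biological replicates 1 and 2. The cells are the survivors of a transient transfection and a drug selection, and no untransfected or untreated library was analysed here.

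A mirtron is a miRNA precursor that is also an entire short intron. Most miRNA hairpins are cut from a longer transcript by Drosha within the Microprocessor complex. A mirtron instead gets both ends from the spliceosome, after which the lariat is opened by the debranching enzyme DBR1, folds into a hairpin, leaves the nucleus through exportin 5 and is cut by Dicer. The strand named 5p therefore begins at the 5′ splice site and the strand named 3p ends at the 3′ splice site. Splicing is coupled to transcription in part through the Pol II CTD.

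The hairpin sequences carry splice-site letters at both ends. The hairpins of the 3 mirtrons on which the results turn are given below from RefSeq (GRCh38.p14), 5′ to 3′, with the splice-site dinucleotides at the ends in capitals. In hg38, the build of the count files, they lie at chr6:30584332-30584417 on the plus strand in an intron of ABCF1 (MIR877, ENSG00000216101.3), chr3:47849555-47849629 on the plus strand in an intron of DHX30 (MIR1226, ENSG00000221585.1) and chr3:184241405-184241489 on the plus strand in an intron of VWA5B2 (MIR1224, ENSG00000221120.1).
MIR877: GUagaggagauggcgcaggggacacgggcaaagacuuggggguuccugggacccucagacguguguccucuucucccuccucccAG
MIR1226: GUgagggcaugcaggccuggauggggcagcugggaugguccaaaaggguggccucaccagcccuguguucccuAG
MIR1224: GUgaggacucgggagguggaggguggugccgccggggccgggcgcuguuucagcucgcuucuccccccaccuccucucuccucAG

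In the GENCODE v44lift37 annotation (GRCh37), all 10 hairpins started at the first base and ended at the last base of an intron, with 0 bases left over at either side. The introns were 69 to 102 bases long and each lay in a protein-coding gene. ABCF1 codes for an ATP-binding protein that acts in translation initiation, and DHX30 for an RNA helicase. MIR1227 lies in PLEKHJ1 (chr19:2234062-2234149, minus strand), MIR1229 in MGAT4B (chr5:179798278-179798346, minus strand) and MIR1225 in PKD1 (chr16:2090195-2090284, minus strand). MIR1228 lies in LRP1 (chr12:57194504-57194576, plus strand), MIR1237 in RPS6KA4 (chr11:64368602-64368703, plus strand) and MIR1238 in ATG4D (chr19:10552122-10552204, plus strand). NELFE, the host of MIR1236, codes for a subunit of the negative elongation factor that holds Pol II paused near promoters. All 10 hairpins began with GU and ended with AG. Among the 1507 counted miRNA features with a RefSeq hairpin, 36 (2.39%) had both ends of this kind, and 23 of those 36, the 10 mirtrons among them, filled an annotated intron to within 10 bases at each end. The host transcripts themselves were not analysed here.

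The mature miRNAs of the same 3 genes are given with the seed, bases 2 to 8, in capitals, since the seed decides most target pairing.
miR-877-5p: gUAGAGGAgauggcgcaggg
miR-877-3p: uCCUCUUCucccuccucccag
miR-1226-5p: gUGAGGGCaugcaggccuggaugggg
miR-1226-3p: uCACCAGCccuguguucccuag
miR-1224-5p: gUGAGGACucgggaggugg
miR-1224-3p: cCCCACCUccucucuccucag
The 20 mature sequences of the 10 mirtrons had 20 different seeds, and each had 1 exact match in the GRCh37 genome. Only 2 of the seeds were found in another RefSeq miRNA: that of miR-1237-5p in miR-4488 and that of miR-1238-5p in miR-4758-5p, genes with 1 count each over the 4 libraries. The 3p strand ended at the last intron base in 8 of 10 mirtrons. In MIR1228 and MIR1238 it stopped 2 bases earlier, before the AG. The 5p strand started at the first intron base in 8 of 10, started 1 base later in MIR1236 and lay 49 bases inside the hairpin in MIR1237.

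The strands also carried the base composition of intron ends. The 3p strands, which lie where the pyrimidine tract of the intron is found, were 63.6% to 90.5% pyrimidine with a median of 80.5%. The median was 57.1% for the 3p strands of the 718 other counted hairpins with 2 annotated strands. The 5p strands of the mirtrons were purine rich, with a median pyrimidine share of 28.6% against 45.5% for the others. Hairpin GC content had a median of 69% against 52.4%. These are descriptions of the annotation and no test was made. The predicted folding energy per 100 bases was more alike, with medians of −49.5 and −46.6 kcal/mol.

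**Figure D1:**
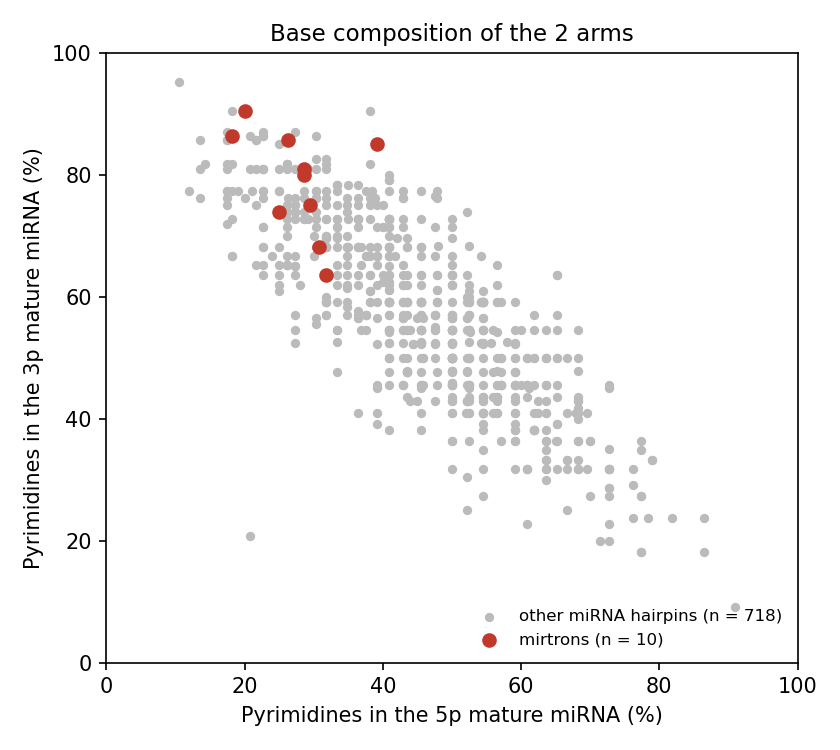
Percentage of pyrimidines in the 5p mature miRNA (x axis) and in the 3p mature miRNA (y axis) for the 10 mirtrons (red) and 718 other miRNA hairpins with 2 annotated strands (grey). The mirtrons sit in the upper left, with 18.2% to 39.1% pyrimidine in the 5p strand and 63.6% to 90.5% in the 3p strand, among other hairpins of like composition.

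The libraries held 16180790 to 27370127 counts, and their log2 CPM values had a Pearson correlation across features of 0.99 within 52X T4A, 0.977 within 52X WT and 0.973 to 0.987 from one group to the other. The deepest library was 52X T4A replicate 2. The 8 miRNAs listed as typical of HEK293 cells were all abundant. They summed to 204300 and 226600 CPM in 52X T4A against 234100 and 261100 CPM in 52X WT. MIR122, the liver marker, was under 1 CPM in each library. The sum over 9 muscle miRNAs was 83.4 and 98.4 CPM in 52X T4A against 31.3 and 34.8 CPM in 52X WT, with 2 of the 9 at a mean of 100 or more counts. The sum over 6 blood miRNAs was 32.0 to 42.5 CPM in the mutant against 50.0 to 61.5 CPM in the wild type. The part of these shifts in the mirtron values was not tested.

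Mirtron reads were rare in these libraries. Together the 10 genes held 1462 and 3913 counts in 52X T4A replicates 1 and 2, and 1105 and 1245 counts in 52X WT replicates 1 and 2. These are 92.4 and 124 CPM against 75.7 and 66.1 CPM, with the library size of each CPM value corrected by its TMM factor. Both 52X T4A libraries were above both 52X WT libraries, and their 95% Poisson intervals, which cover counting error only, were 87.7 to 97.2 and 120 to 128 CPM against 71.3 to 80.3 and 62.5 to 69.9 CPM. The 52X T4A mean of 108 ± 22.3 CPM was 1.52 times the 52X WT mean of 70.9 ± 6.78 CPM (SD, n = 2). The 52X T4A libraries differed from each other by a factor of 1.34, and without 52X T4A replicate 2 the ratio was 1.32. MIR877 held 75.8% of mirtron counts, and without it the ratio of the sums was 1.14, with overlapping groups at 23.1 and 25.4 CPM against 23.4 and 19.2 CPM. For 2 libraries against 2, the smallest two-sided p-value an exact permutation test allows is 0.333. In bulk samples, fewer cells that make an RNA and less of it in each cell cannot be told apart.

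**Figure D2:**
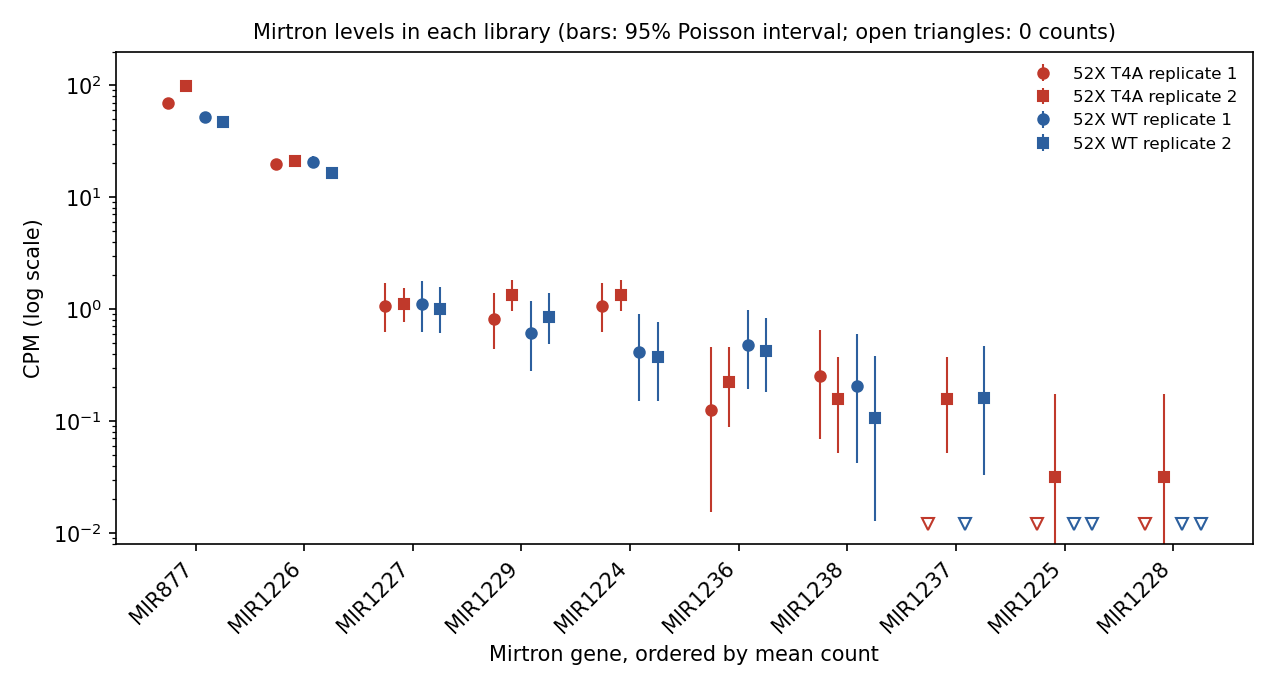
CPM on a log scale (y axis) of each mirtron (x axis, ordered by mean count) in the 52X T4A (red) and 52X WT (blue) libraries, with circles for replicate 1, squares for replicate 2, bars for the 95% Poisson interval and open triangles for 0 counts. MIR877 is the only gene with all libraries above 40 CPM, and MIR1225 and MIR1228 have 1 count each, in 52X T4A replicate 2.

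Per kilobase of feature, the order of mean levels over the 4 libraries was MIR877 (777 CPM per kb), MIR1226 (259), MIR1229 (13.1), MIR1227 (12.2), MIR1224 (9.37), MIR1236 (3.07), MIR1238 (2.18), MIR1237 (0.779), MIR1228 (0.108) and MIR1225 (0.088). The order below MIR1226 differed between the groups. In 52X T4A it ran MIR1229, MIR1224, MIR1227, MIR1238 and MIR1236, and in 52X WT it ran MIR1227, MIR1229, MIR1224, MIR1236 and MIR1238. By CPM, MIR877 was the 159th and MIR1226 the 226th most abundant of the 1870 miRNA features. The step from MIR1226 to the next genes was larger than the spread between libraries, whereas the library values of MIR1229, MIR1227 and MIR1224 overlapped, as did those of MIR1236, MIR1238 and MIR1237. Of 3 hairpin properties set beside the mean level, GC content had a Spearman correlation of −0.71 across the 10 genes, length one of −0.30 and folding energy per 100 bases one of 0.44. The genes share their libraries and the lowest of them have almost no reads, so these are descriptions.

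The groups were compared by edgeR, whose quasi-likelihood test was run on the 1480 features that passed a filter on low counts. P-values were adjusted over all 1480 by the Benjamini-Hochberg method and are given as FDR. Calls needed an FDR under 0.05 together with a fold change over 1.5. There were 2 calls among the 1480 features (0.135%), neither of them a mirtron, with 1 in each direction (0.0676% for higher and 0.0676% for lower levels in 52X T4A). At an unadjusted p under 0.05, 152 features passed in edgeR, of which 59 (3.99%) were higher in 52X T4A, and 2 of these were the mirtrons MIR877 and MIR1224. MIR1224 had met the filter through the 52X T4A libraries alone, so its place in this count cannot be read as support for a direction. With DESeq2 the features called were 30. It gave an adjusted p for 2 of the 5 mirtrons, MIR877 and MIR1226, and called neither. In simulated counts with these library sizes, the test recovered 92.9% of 4-fold changes but 19% of 2-fold changes, with 7 and 1 false calls. The changed features were drawn at random from all levels above the filter, so the rates are not those of low mirtrons such as MIR1224. The 5 mirtrons that could be tested were MIR877, MIR1226, MIR1227, MIR1229 and MIR1224. The other 5 were too low for the filter, which asks for 0.566 CPM, by unscaled library total, in at least 2 libraries.

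MIR877, the mirtron of ABCF1, had 1097 and 3112 counts in 52X T4A and 763 and 884 counts in 52X WT. Its level was 69.3 and 98.6 CPM against 52.3 and 47.0 CPM. Both 52X T4A libraries were above both 52X WT libraries, as was the case for 280 of all 1480 tested features (18.9%). Among the tested mirtrons the groups were apart in 2 of 5, MIR877 and MIR1224, both with 52X T4A higher. Over all tested features they were apart in either direction for 594 (40.1%). MIR1224 had met the filter through the 52X T4A libraries alone, so the 2 of 5 cannot be read as a result about the mirtrons. The means of MIR877 were 83.9 ± 20.7 and 49.6 ± 3.77 CPM (SD, n = 2). Its log2 fold change was 0.76 ± 0.30 (SE), a 1.69-fold higher fitted level in 52X T4A. This did not pass the test, with an unadjusted p of 0.0303 and an FDR of 0.421 in edgeR. Of the 621 tested miRNAs, 44 had a larger log2 fold change. The difference leaned on the deepest library: the log2 fold change was 0.50 without 52X T4A replicate 2 and 0.98 without 52X T4A replicate 1, with edgeR FDRs of 0.942 and 0.704.

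MIR1226, the mirtron of DHX30, had 312 and 663 counts in 52X T4A and 301 and 306 counts in 52X WT. These were 19.7 and 21.0 CPM against 20.6 and 16.3 CPM, and the groups overlapped. The log2 fold change was 0.14 ± 0.31 (SE), at an edgeR FDR of 0.917. The sign turned when a library was left out: without 52X WT replicate 2 the log2 fold change was −0.02.

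The ratio of MIR877 to MIR1226 counts within a library does not depend on library scaling. It was 3.52 and 4.69 in 52X T4A and 2.53 and 2.89 in 52X WT. The ratio was higher in both 52X T4A libraries, with means of 4.10 ± 0.833 and 2.71 ± 0.25 (SD, n = 2). The smallest p-value an exact permutation test allows here is again 0.333. Relative to MIR1226 in the same library, MIR1227 stood at 0.0545 and 0.0528 in 52X T4A and at 0.0532 and 0.0621 in 52X WT. MIR1229 stood at 0.0417 and 0.0633 in 52X T4A and at 0.0299 and 0.0523 in 52X WT. For both of these ratios the groups overlapped.

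MIR1224, the mirtron of VWA5B2, showed the largest fold change of the tested mirtrons, at a level near the limit of the filter. It had 17 and 42 counts in 52X T4A and 6 and 7 counts in 52X WT. These were 1.07 and 1.33 CPM against 0.411 and 0.372 CPM, with 95% Poisson intervals of 0.626 to 1.72 and 0.959 to 1.80 CPM against 0.151 to 0.895 and 0.150 to 0.766 CPM. The groups did not overlap, but the interval of 52X T4A replicate 1 overlapped both intervals of 52X WT. The log2 fold change was 1.62 ± 0.50 (SE), with an unadjusted p of 0.00949 and an FDR of 0.325 in edgeR. MIR1224 reached the cutoff of the filter in both 52X T4A libraries and in neither 52X WT library, so it entered the test only through the group in which it was higher. Relative to MIR1226 in the same library it stood at 0.0545 and 0.0633 in 52X T4A and at 0.0199 and 0.0229 in 52X WT. Over all settings tried its log2 fold change ran from 1.46 to 1.81, and no setting with an adjusted p called it. DESeq2 gave none for it.

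MIR1229, the mirtron of MGAT4B, which codes for a glycosyltransferase of N-glycan branching, had 13 and 42 counts in 52X T4A and 9 and 16 in 52X WT. Its level was 0.821 and 1.33 CPM against 0.617 and 0.850 CPM, and the groups overlapped. The log2 fold change was 0.57 ± 0.49 (SE), at an edgeR FDR of 0.66, and without 52X T4A replicate 2 it was 0.17. MIR1227, the mirtron of PLEKHJ1, had 17 and 35 counts in 52X T4A and 16 and 19 in 52X WT. Its 4 libraries lay between 1.01 and 1.11 CPM, with a log2 fold change of 0.06 ± 0.43 (SE) and an edgeR FDR of 0.981.

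The fitted log2 fold changes of the 5 tested mirtrons had a median of 0.57, against −0.05 over all tested features. They were above 0 in 5 of 5, against 46.1% of all tested features, and in 3 of 5 without 52X WT replicate 2. Neither value can be read as support for a direction, because MIR1224 and MIR1229 had met the filter through the 52X T4A libraries, with 0 and 1 of the 52X WT libraries at the cutoff. For MIR877, MIR1226 and MIR1227, which reached the cutoff in all 4 libraries, the median was 0.14.

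**Figure D3:**
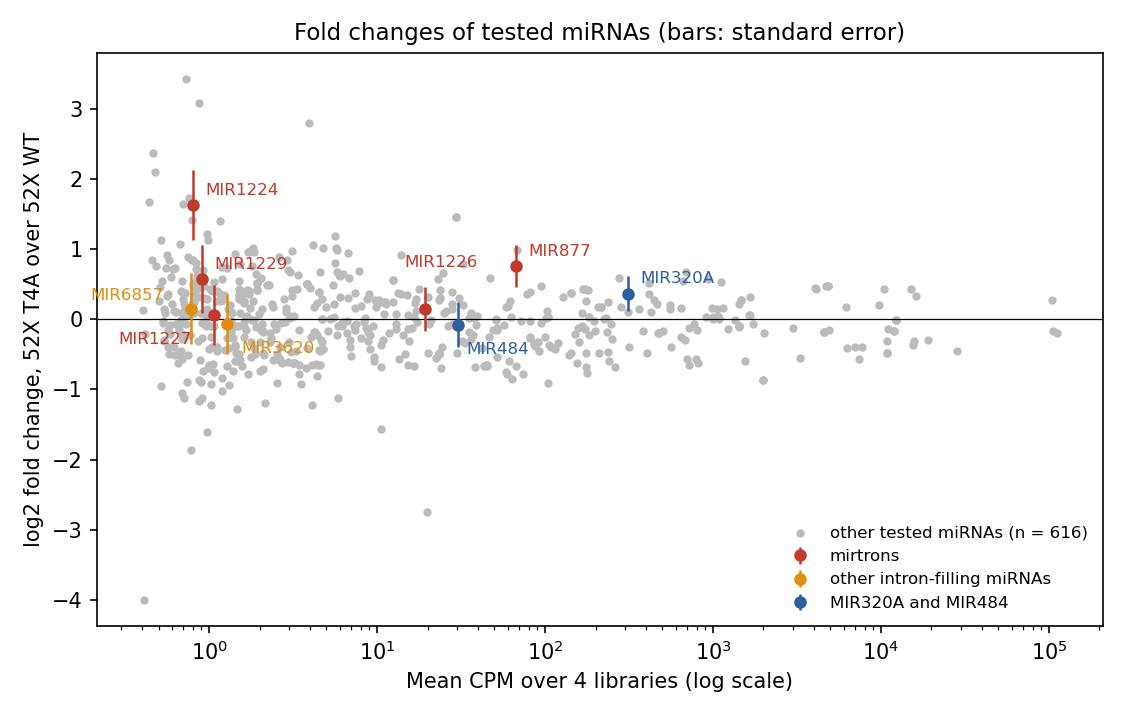
Fitted log2 fold change of 52X T4A over 52X WT (y axis) against mean CPM over the 4 libraries on a log scale (x axis), for the tested mirtrons (red), other miRNAs that fill an intron (orange), MIR320A and MIR484 (blue) and the other tested miRNAs (grey), with bars for the standard error. MIR877 at 0.76 and MIR1224 at 1.62 are the highest of the 5 mirtrons, with 44 and 8 of the 621 tested miRNAs above them, while MIR1226 and MIR1227 lie close to 0. MIR1224 met the filter through the 52X T4A libraries alone.

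The remaining 5 mirtrons were seen at 8 counts or fewer in every library. MIR1236, in the NELFE intron at chr6:31956839-31956940 on the minus strand, had 2 and 7 counts in 52X T4A and 7 and 8 in 52X WT. This was 0.126 and 0.222 CPM against 0.480 and 0.425 CPM, the only mirtron whose groups did not overlap with 52X T4A lower. Its Poisson intervals overlapped between all libraries, and in a fit without the filter its log2 fold change was −1.22 ± 0.74 (SE), at an edgeR FDR of 0.792. MIR1238 had 4 and 5 counts in 52X T4A and 3 and 2 in 52X WT. MIR1237 had 0 and 5 counts in 52X T4A and 0 and 3 in 52X WT. MIR1225, in an intron of the polycystin gene PKD1, and MIR1228, in an intron of the lipoprotein receptor gene LRP1, each had 1 count in 52X T4A replicate 2 and 0 in the other 3 libraries. The limit taken for a count of 0 was 3 counts, a one-sided 95% limit that lies below the upper end of a two-sided interval. It is 0.190 CPM in 52X T4A replicate 1, 0.206 CPM in 52X WT replicate 1 and 0.159 CPM in 52X WT replicate 2. No direction can be read from these values.

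The same geometry was then sought among the other miRNAs. Beside the 10 mirtrons, 20 counted miRNA features filled an annotated intron to within 10 bases at both ends, 17 of them had any count and 2 could be tested. MIR3620, in an intron of the ADP-ribosylation factor gene ARF1 at chr1:228097263-228097341 on the plus strand, had 16 and 46 counts in 52X T4A and 20 and 24 in 52X WT. Its log2 fold change was −0.07 ± 0.42 (SE), at an edgeR FDR of 0.981. MIR6857, in an intron of the cohesin gene SMC1A, had 12 and 27 counts against 14 and 10, with a log2 fold change of 0.15 ± 0.50 (SE) and an edgeR FDR of 0.957. MIR6807 had 5 and 11 counts in 52X T4A and 2 and 5 in 52X WT, MIR6789 had 9 and 8 against 2 and 1, and MIR6786 had 0 and 5 against 4 and 3. MIR6789 lies in another intron of PLEKHJ1, the host of MIR1227. A further 209 features had one end within 10 bases of an intron end. A tailed mirtron has this layout, but position alone does not mark a feature as one. The most abundant of the 209 was MIRLET7A1, at a mean of 99060 counts. Of the 209 features 44 were tested, 23 with a log2 fold change above 0, with a median of 0.08 and none called. MIR877 had more counts than any other miRNA that filled an intron.

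Intronic miRNAs that Microprocessor cuts from their host introns gave the contrasting class. Of 44 listed, 43 were tested, 18 had a log2 fold change above 0 and 25 below, with a median of −0.15, and none was called. The most abundant was MIR25, which lies in an intron of the DNA replication gene MCM7, at 26500 and 21540 CPM in 52X T4A against 28100 and 37670 CPM in 52X WT. Its log2 fold change was −0.45 ± 0.21 (SE), at an edgeR FDR of 0.467. MIR30E had a log2 fold change of −0.36 and MIR103A2 one of −0.17, with edgeR FDRs of 0.467 and 0.768, and neither was called. Some related loci of this class held nearly the same counts, so the 43 tested features are not all separate measurements. In 52X T4A replicate 1, MIR103A1 and MIR103A2 had 186632 and 186715 counts, and MIR26A1 and MIR26A2 had 25585 and 25598. With libraries scaled by size alone the median of this class turned to 0.04, while that of all tested features moved from −0.05 to 0.14. The difference between the mirtrons and this class was not tested.

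MIR320A and MIR484 need Dicer but not Microprocessor, their hairpin ends being set by transcription and not by splicing, and MIR451A needs Microprocessor but not Dicer. MIR320A was at 348 and 353 CPM in 52X T4A against 317 and 228 CPM in 52X WT, with a log2 fold change of 0.37 ± 0.25 (SE) and an edgeR FDR of 0.584. MIR484 was at 23.8 and 34.9 CPM against 33.9 and 28.2 CPM, with a log2 fold change of −0.08 ± 0.32 (SE) and an edgeR FDR of 0.969. MIR451A had 8 and 13 counts in 52X T4A and 3 and 9 in 52X WT and was not tested.

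The mirtron hairpins are GC rich, so the fold changes were also set beside the GC content of other hairpins. Over the 490 tested miRNAs with a RefSeq hairpin, GC content and log2 fold change had a Spearman correlation of 0.17 across genes, which are not independent replicates. The 77 other tested miRNAs with a GC content of at least 62.8%, the lowest of a tested mirtron, had a median log2 fold change of −0.04, and 35 of the 77 were above 0. The part of GC content in the mirtron values was not tested further.

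The tested miRNAs whose levels followed MIR877 most closely over the 4 libraries were looked up by the distance between log2 CPM values centred on each gene's mean. Out of 620 candidates the nearest were MIR7111 (distance 0.129), MIR3685 (0.156) and MIR6511A4 (0.243). MIR7111 had 10 and 26 counts in 52X T4A and 6 and 7 in 52X WT, and MIR3685 had 10 and 27 against 6 and 8. MIR6511A4 had 33 and 87 counts in 52X T4A and 19 and 21 in 52X WT, and its 3 near-identical relatives MIR6511A1, MIR6511A2 and MIR6511A3 held 18 to 77 counts. How reads that match several of these loci were counted is not given in the sources used here. The same reads may count at several loci, as the nearly equal counts of MIR103A1 and MIR103A2 above allow. With 4 libraries and counts this low for the nearest miRNAs, likeness to MIR877 has little precision.

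**Figure D4:**
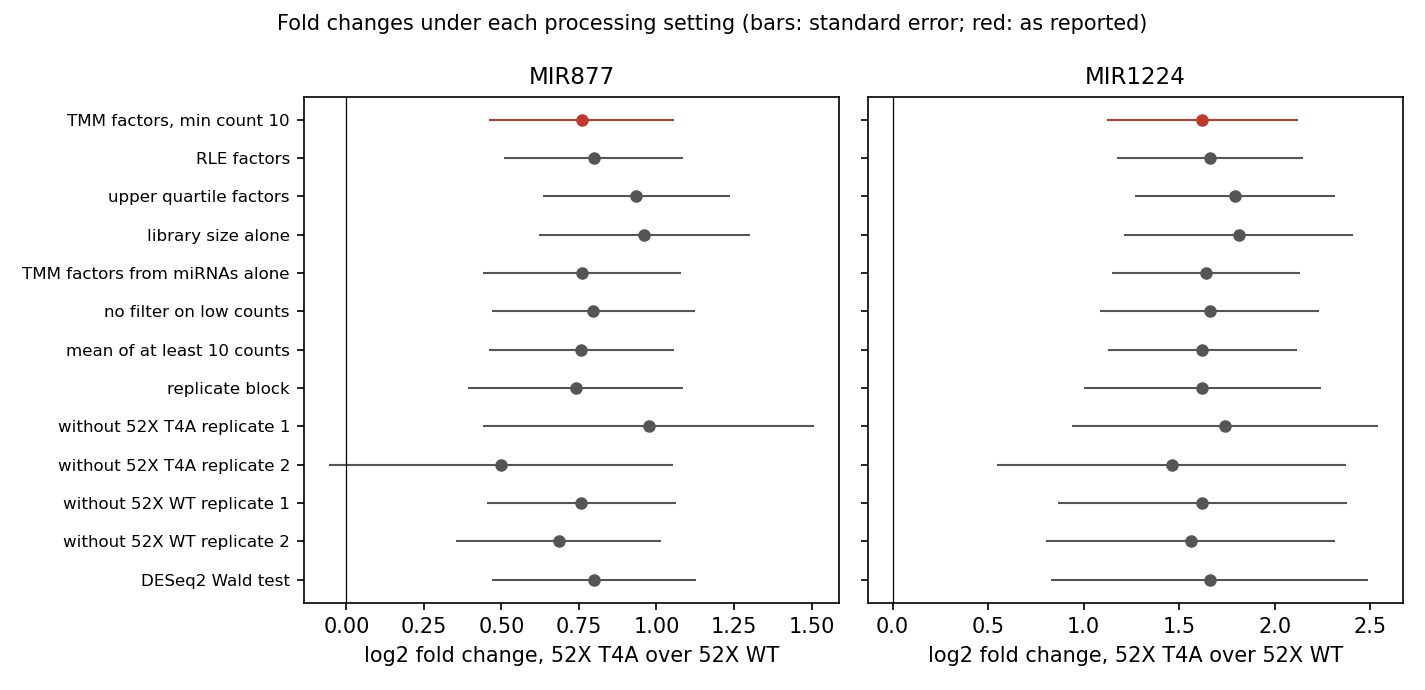
Log2 fold change of 52X T4A over 52X WT (x axis) for MIR877 (left) and MIR1224 (right) under each processing setting (y axis), with bars for the standard error and the reported setting in red. All values are above 0, from 0.50 to 0.98 for MIR877 and from 1.46 to 1.81 for MIR1224, with the lowest of each when 52X T4A replicate 2 was left out.

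How the counts were made limits what they say about splicing. Each feature is a whole hairpin, so 5p and 3p reads were not separated, and a read from a mature mirtron cannot be told apart from a fragment of the excised intron. No other listed feature overlapped any of the 10 mirtrons on either strand.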

How the data were processed

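Small RNA was measured in 4 libraries, 2 per group. The authors deposited raw read counts per feature for each library, without normalization. The submitters' processing notes name cutadapt v4.6, Bowtie2 v2.3.5.1, featureCounts v1.5.0 and hg38. Their options, including the treatment of strand and of reads that match several loci, are not given in the sources used here. Features took names from identical RefSeq positions (GRCh38.p14, 1829 features) or GENCODE v44lift37 identifiers (4658), and 575 stayed unnamed.

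Intron ends came from GENCODE v44lift37 on GRCh37. Features were joined to it by identifier or symbol, or by an exact match of the RefSeq hairpin to the first or last 220 bases of an intron, and no coordinates were converted. Of 1870 miRNA features 100 could not be placed. Hairpins were folded with RNAfold v2.7.2.

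Counts were filtered with filterByExpr (minimum count 10), scaled with TMM factors and tested in R v4.3.3 with the quasi-likelihood functions of edgeR v4.0.16. Log2 CPM values for correlations and distances had a prior count of 1. Standard errors are the log2 fold change divided by the square root of F. The test was tested on simulated data of 1423 features for 2-fold and 1433 for 4-fold changes in 52X T4A against 52X WT. Alternatives were other scaling factors, other filters, DESeq2 v1.42.0, the replicate number as a block and the removal of each library.

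The members and lists were chosen with earlier results of these data known. The named genes were all members, MIR320A, MIR484, MIR451A, the 5 other intron-filling miRNAs and the 3 conventional intronic miRNAs with the highest mean counts, and the 3 miRNAs most like MIR877. The copies of MIR6511A4 were named after their values had been seen. The edgeR p-values set the group difference against the spread within groups, which is moderated over all tested features. They rest on these 4 libraries only.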

Additional observations from a re-analysis of the deposited data

How the results depend on the processing

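No mirtron with an adjusted p was called under any of the 12 alternatives, all planned, but DESeq2 gave an adjusted p for 2 of the 5 only (MIR877 and MIR1226). The fitted fold changes of the 5 tested mirtrons gave 60 comparisons with the reported setting, of which 58 kept the sign. Of those 58, 55 had an adjusted p and all 55 kept the test outcome, and the other 3 were MIR1224, MIR1227 and MIR1229 in DESeq2. The 2 that changed sign turned to −0.0163 for MIR1226 and to −0.0024 for MIR1227, both without 52X WT replicate 2. Over the removal of each library MIR1226 ran from −0.0163 to 0.234 and MIR1227 from −0.0024 to 0.0603. Without any one library the ratio of summed mirtron CPM ran from 1.32 to 1.73 and the median log2 fold change of the tested mirtrons from 0.17 to 0.83. The median of all tested features moved from −0.05 to 0.13 with upper quartile factors and to 0.14 with library size alone, where the sum ratio was 1.72 and 1.75. Over all features, the 2 calls became 9 with library size alone, 29 without a filter, 30 with DESeq2 and 18 with the replicate number as a block. Leaving out a library gave 4 to 218 calls, with 218 for 52X WT replicate 2 left out and 35, 6 and 4 for 52X WT replicate 1, 52X T4A replicate 1 and 52X T4A replicate 2. In these fits the lone library is assumed to vary like the other group. The labels do not say that equal numbers pair the libraries, and across tested features libraries of equal number deviated from their group means with a correlation of 0.0946. Under the replicate block the median of the tested mirtrons was 0.55, and the adjusted p-values of edgeR were 0.351 for MIR877 and 0.185 for MIR1224. Over all settings the adjusted p ran from 0.166 to 0.942 for MIR877 and from 0.158 to 0.90 for MIR1224. The median of the other intron-filling miRNAs was 0.04 with 2 tested and −0.0687 with 1 tested when both ends had to lie within 3 bases. A separate class, the 44 tested miRNAs with only one end at an intron end, had a median of 0.0763. The median of conventional intronic miRNAs turned to 0.0351 with library size alone, where that of all tested features was 0.14. The cause was not tested.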
